A study of Mus musculus with 6 samples.

Results

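The levels of 10 long noncoding RNAs were followed in the embryonic mouse midbrain: Mirt1, 1700048O20Rik, Meg3, Rian, Mirg, Malat1, Neat1, Miat, Sox2ot and Snhg11. They are 10 of the 26852 genes that were listed, and 5516 of these genes are annotated as long noncoding RNAs. Mirt1 and 1700048O20Rik were chosen by their mean, which was higher in the Lmx1b cKO than in the control, so their difference between genotypes is given as a description without a test. The other 8 were picked as well-known transcripts of the brain. GENCODE annotates Snhg11 as protein-coding, so it is not counted among the 5516.

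RNA was sequenced from dissected E14.5 midbrains of 3 Lmx1b cKO libraries (Lmx1b fl/fl;Pitx3-Cre) and 3 control libraries (Lmx1b wt/wt;Pitx3-Cre), all on a C57Bl/6 background and each made from pooled embryos. Both groups carry Pitx3-Cre, in which Cre takes the place of a Pitx3 allele and acts in the Pitx3-expressing dopaminergic neurons, which are a small part of the dissected tissue. In bulk tissue, fewer cells of a type and less RNA per cell cannot be told apart. The comparison asks which transcripts change in the midbrain once Lmx1b, a LIM-homeodomain transcription factor of these neurons, is removed there.

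The table gives the mean normalized read count of each genotype, that is, reads divided by the size factor of the library. The whole-number reads of each library were recovered from these means for 26837 genes (99.9%), with 28463544 to 34432562 reads per library, and within a genotype the letters a, b and c name the libraries by falling size factor. For Meg3 the printed means did not fix the reads, since 20 sets of whole numbers fitted the cKO mean and 26 the control mean, so only its means are given. Lmx1b itself had 1257, 1401 and 1455 normalized counts in cKO libraries, against 1368, 1352 and 1474 in control libraries, with overlapping groups. A count over the whole gene does not separate the floxed exons from the rest. The midbrain genes En1, En2 and Otx2 were present in all 6 libraries, at 940 or more normalized counts. Over all 17162 genes tested by limma, 472 (2.75%) had an unadjusted p under 0.05. Of 72 cell type markers tested, 4 were higher and 7 lower in the cKO at an unadjusted p under 0.05 by limma, and 0 passed the adjusted test. The lower ones were En1 and En2 (log2 fold changes of -0.40 and -0.46), Ddc and Pitx3 of dopaminergic neurons (-0.24 and -0.41), and Fabp7, Slc1a3 and Hes5 of radial glia and progenitors (-0.13, -0.21 and -0.33). The higher ones were Aldh1a1 of a dopaminergic subset (0.92), Col3a1 of mesenchyme (1.84) and the globin genes Hba-a1 and Hbb-bs of blood (0.26 and 0.30). The part of these shifts in the levels of the noncoding RNAs was not tested. Markers of bone and mesenchyme stood apart in cKO replicate c: all 11 were highest there, and their summed level was 14533 normalized counts there, 2476 in cKO replicate a and 810 to 937 in the other 4 libraries. The sex of the pooled embryos also differed, as the Y-linked Ddx3y ranged from 621 to 1818 normalized counts over the libraries.

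Long noncoding RNAs are transcribed and spliced much like messenger RNAs but code for no known protein, and many act in the nucleus, as scaffolds of nuclear bodies, as regulators of neighbouring genes or as hosts of small RNAs. Malat1 gathers in nuclear speckles together with splicing factors, Neat1 builds the paraspeckles, and Miat, also called Gomafu, forms nuclear spots of its own in neurons and binds splicing factors. Meg3, Rian and Mirg are transcribed from the maternal copy of the imprinted Dlk1-Dio3 domain and carry microRNAs and small nucleolar RNAs. Sox2ot surrounds the gene of the progenitor factor Sox2, and Snhg11 is a neuronal host gene of small nucleolar RNAs. Mirt1 was named for its rise after myocardial infarction, and no role is given here for 1700048O20Rik, a RIKEN cDNA.

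The sequences of the RNAs show what some of them carry. Miat is known for repeats of UACUAAC, which match the intron branch point bound by the splicing factor SF1. On the sense strand of the longest annotated transcript of Miat (9163 bases), TACTAAC occurred 6 times, all in its last exon (exon 7), in clusters of 3 copies. The first cluster lies at chr5:112217309-112217460 and the second at chr5:112216752-112216812 (GRCm38, minus strand). Both are printed from the GENCODE transcript, 5′ to 3′, with each copy in capitals.
Miat, first cluster: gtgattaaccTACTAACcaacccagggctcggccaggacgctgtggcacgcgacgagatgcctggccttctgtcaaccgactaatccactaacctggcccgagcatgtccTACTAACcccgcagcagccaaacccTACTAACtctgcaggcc
Miat, second cluster: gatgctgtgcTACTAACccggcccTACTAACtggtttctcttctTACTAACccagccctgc
Over the longest transcripts of 13374 long noncoding genes, 4.58% held the repeat at least once. Of the 71 whose length was within 1.5 times that of Miat, 16.9% held it, and only Miat among them held 6 copies. Over all lengths 1 other gene, AC154442.1, also held 6, in 1389 bases. Neat1 held 1 copy in 20771 bases, and the other 8 RNAs held none on the sense strand. The reverse complement, GTTAGTA, was found once in Meg3 and in none of the other 9.

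**Figure D1:**
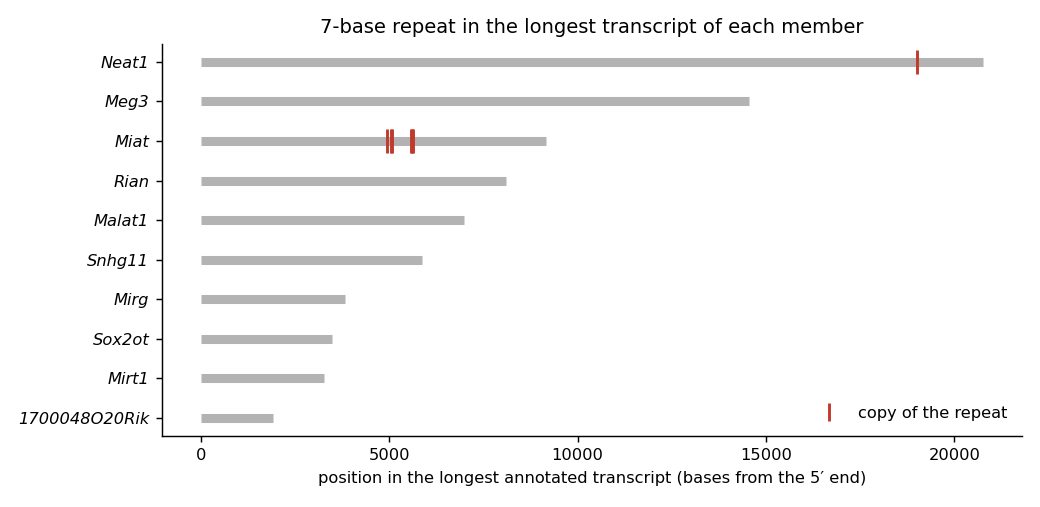
The grey bars show the longest annotated transcript of each of the 10 RNAs, to scale in bases from its 5′ end, and the red marks show the copies of the repeat TACTAAC on the sense strand. The 6 copies of Miat sit in 2 clusters between 53.9% and 61.4% of its length, and the copy of Neat1 sits near the 3′ end.

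Most of the small RNAs embedded in the set lie in the imprinted domain on chromosome 12, and Snhg11 and Sox2ot hold a few more. RefSeq places 19 microRNA hairpins inside the members on their own strand, of which 14 lie in Mirg, 3 in Rian, 1 in Meg3 and 1 in Sox2ot. They give 35 mature microRNAs with 34 different seeds (bases 2 to 8, which pair with targets). The hairpins of miR-770 in Meg3, of miR-134, miR-485, miR-377 and miR-410 in Mirg and of miR-1897 in Sox2ot lie wholly within annotated exons of the host. The shared seed belongs to miR-496a-5p and miR-453 of Mirg, and miR-154-3p and miR-485-3p differ in the first base of the seed. These pairs are printed with miR-134-5p, known from dendrites of neurons, and with miR-770-5p of Meg3 and miR-370-3p of Rian, 5′ to 3′ with the seed in capitals.
miR-496a-5p: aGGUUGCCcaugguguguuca
miR-453: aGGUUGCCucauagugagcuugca
miR-154-3p: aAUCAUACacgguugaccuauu
miR-485-3p: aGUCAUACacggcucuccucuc
miR-134-5p: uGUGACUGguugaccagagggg
miR-770-5p: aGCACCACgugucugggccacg
miR-370-3p: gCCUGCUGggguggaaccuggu
The libraries hold fragments of longer RNAs, so the values below are those of the host transcripts and not of the mature microRNAs.

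Mirt1 and 1700048O20Rik are the members whose means set them apart, and the RefSeq sequence (GRCm38.p6) from 250 bases before to 50 bases after their start is printed, 5′ to 3′ on the strand of the gene. In that of 1700048O20Rik, at chr9:121937025-121937324 on the plus strand, the capitals mark ATTGG, which reads CCAAT on the other strand, the core of the CCAAT box bound by NF-Y. In that of Mirt1, at chr19:53464747-53465046 on the minus strand, the capitals mark CG dinucleotides.
1700048O20Rik: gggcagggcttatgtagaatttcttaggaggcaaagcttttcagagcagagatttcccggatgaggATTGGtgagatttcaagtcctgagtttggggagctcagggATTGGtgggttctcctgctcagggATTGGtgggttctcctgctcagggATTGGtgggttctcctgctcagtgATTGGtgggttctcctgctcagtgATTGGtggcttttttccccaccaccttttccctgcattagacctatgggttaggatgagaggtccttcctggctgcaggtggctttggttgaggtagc
Mirt1: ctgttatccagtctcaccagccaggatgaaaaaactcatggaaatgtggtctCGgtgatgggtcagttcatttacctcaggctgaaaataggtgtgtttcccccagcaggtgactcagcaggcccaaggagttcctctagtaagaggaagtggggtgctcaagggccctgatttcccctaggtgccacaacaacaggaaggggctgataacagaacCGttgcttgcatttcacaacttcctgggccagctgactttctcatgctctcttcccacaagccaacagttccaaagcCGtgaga
The window of 1700048O20Rik held 6 copies of ATTGG, the last 5 of them 24 bases apart within a tandem repeat. Counting CCAAT and ATTGG together, 37.4% of all 32851 RefSeq promoter windows held at least 1 copy and 26 windows (0.0791%) held 6 or more. This motif was counted after the sequence had been read. Mirt1 held none. CG dinucleotides were few in both, 3 in Mirt1 and 1 in 1700048O20Rik, against a median of 7 over all windows, 25 in Miat and 21 in Snhg11. Low counts were not particular to the pair, as Rian had 0 and the second of the windows of Meg3 had 1. TAATTA, the core bound by many homeodomain factors and its own reverse complement, was in 5.29% of all windows and in none of the 9 windows of the 8 members that had one. That says only that these letters are not in these windows.

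The 10 RNAs spanned a wide range of levels. On the scale of normalized counts, they held 1.099% of all counts on genes, and Meg3 alone held 0.524%, as the second most abundant gene of the table. Snhg11, Miat, Malat1 and Rian ranked 18, 23, 24 and 72. Mirt1, the lowest, ranked 14794.

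Per kilobase of annotated exons, Meg3 had the highest level, with a mean of 9327 normalized counts. Malat1 followed with 5711 to 7444 over the 6 libraries, Snhg11 with 5899 to 7395 and Miat with 4811 to 5726. The ranges of Malat1 and Snhg11 overlapped nearly whole, and that of Miat touched the lower end of Malat1. Rian lay lower, at 1484 to 1685 per kilobase. Then came 1700048O20Rik with 235 to 365, Mirg with 134 to 161 and Sox2ot with 101 to 122, and these 3 ranges did not overlap. Mirt1 and Neat1 were lowest, with 1.12 to 7.40 and 2.30 to 5.60 per kilobase, and overlapped. With the longest transcript as the length, Sox2ot (367) rose above both 1700048O20Rik (319) and Mirg (283), and Snhg11 (9727) rose above Malat1 (6713). The order among these neighbours thus depends on the length used. The mean of Mirt1 was above that of Neat1 (3.93) with either length, at 4.10 by all exons and 10.8 by the longest transcript. The length of Neat1 is the same in both.

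**Figure D2:**
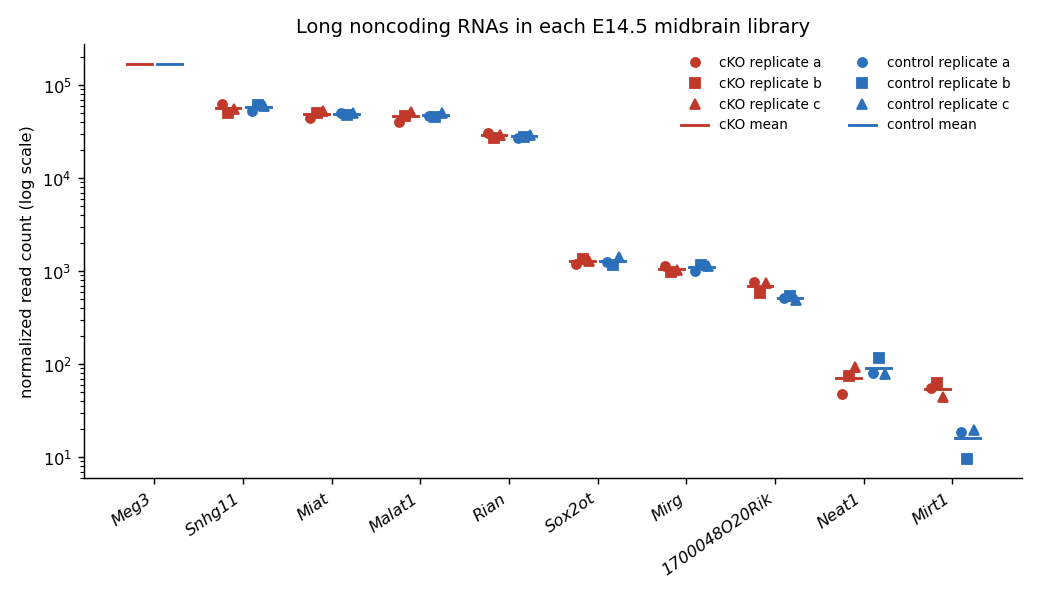
Normalized read count (log scale) of each RNA in the 3 cKO libraries (red) and the 3 control libraries (blue), with lines at the mean of each genotype; Meg3 has means only. The groups are apart for Mirt1 and 1700048O20Rik and overlap for the 7 other RNAs with values per library.

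Mirt1 (ENSMUSG00000097636, chr19:53443230-53464796, minus strand) had 55.3, 63.4 and 44.4 normalized counts in the cKO, given in the order of the letters, and 18.6, 9.61 and 19.4 in the control. Each cKO library lay above each control library, and the lowest cKO library was 2.28 times the highest control library. The means were 54.4 ± 9.5 in the cKO and 15.9 ± 5.4 in the control (SD, n = 3 libraries), a ratio of 3.42. These levels rest on 41 to 60 reads per cKO library and 10 to 21 per control library. Without cKO replicate c, where bone and mesenchyme genes were high, its fitted log2 fold change was 1.93, against 1.80 with all libraries. The part of those cells in the level was not tested.

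1700048O20Rik (ENSMUSG00000043773, chr9:121937223-121947016, plus strand) had 766, 583 and 739 normalized counts in the cKO and 511, 540 and 494 in the control. All 3 cKO libraries lay above the control libraries, but cKO replicate b was only 1.08 times control replicate b. The means were 696 ± 99 and 515 ± 23 (SD, n = 3), a ratio of 1.35. The fitted log2 fold change was 0.43 with all libraries. It was 0.35 without cKO replicate a, 0.55 without b and 0.39 without c. Replicates a and c, where it was higher, also had more counts on bone and mesenchyme markers (2476 and 14533) than replicate b (848). The part of those cells in the level was not tested.

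Across all 17162 genes tested, 1298 (7.56%) had groups that did not overlap, which is the background for the separation of these RNAs. The values of both were used to pick them, so nothing is read from their count.

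The genes next to them were not used in the choice. An RNA on the opposite strand, 4833407H14Rik, overlaps 1008 bases of Mirt1 exons and had normalized counts of 0 in 5 libraries and 1.77 in control replicate a. Whether reads were counted by strand is not given in the sources used here, so how reads of the overlapping bases were counted is not known. The nearest coding genes are Smndc1, a spliceosome protein 52652 bases away, and Dusp5, a phosphatase of ERK 64313 bases away. Smndc1 had 1208, 1261 and 1260 normalized counts in the cKO and 1173, 1134 and 1138 in the control. Its groups did not overlap either, and its log2 fold change was 0.11 ± 0.07 (SE, limma, unadjusted p = 0.115). Dusp5 overlapped between genotypes, with a log2 fold change of -0.49 ± 0.33 (limma, unadjusted p = 0.165).

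Next to 1700048O20Rik, Fam198a lies 3972 bases away on the same strand. It had 81.5, 58.1 and 69.3 normalized counts in the cKO and 48.7, 41.3 and 52.9 in the control. Its 3 cKO libraries also lay above the 3 control libraries, with a log2 fold change of 0.55 ± 0.26 (SE, limma), but it did not pass the test (unadjusted p = 0.058, adjusted p = 1.00). An exon of 1700048O20Rik overlaps 397 bases of Gm49343 on the same strand, a gene not analysed here.

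The genes whose levels ran most alike over the 6 libraries were named by Pearson's r of log2(normalized count + 1) among all genes tested. For Mirt1 they were the pseudogene Gm12444 (r = 0.986), the lysosomal protease gene Ctsh (0.984) and the splicing kinase gene Srpk2 (0.983). For 1700048O20Rik they were the aminopeptidase gene Anpep (0.991), the cytochrome P450 gene Cyp2j9 (0.987) and DQ267102 (0.984), a small nucleolar RNA within an intron of Rian. The r values are the largest of 17162 over 6 libraries and are given as a description.

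In the test across all genes, limma on the recovered counts, 0 of 17162 genes (0%) had an adjusted p under 0.05. At an unadjusted p under 0.05, 472 genes passed (2.75%), 476 with limma-trend, which also made 0 adjusted calls. Of the 7 members that were not picked for their change and had values per library, 0 passed at either threshold with either tool. Their log2 fold changes ran from -0.40 to 0.05, with a median of -0.04, beside a median of 0.00 for all genes tested.

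**Figure D3:**
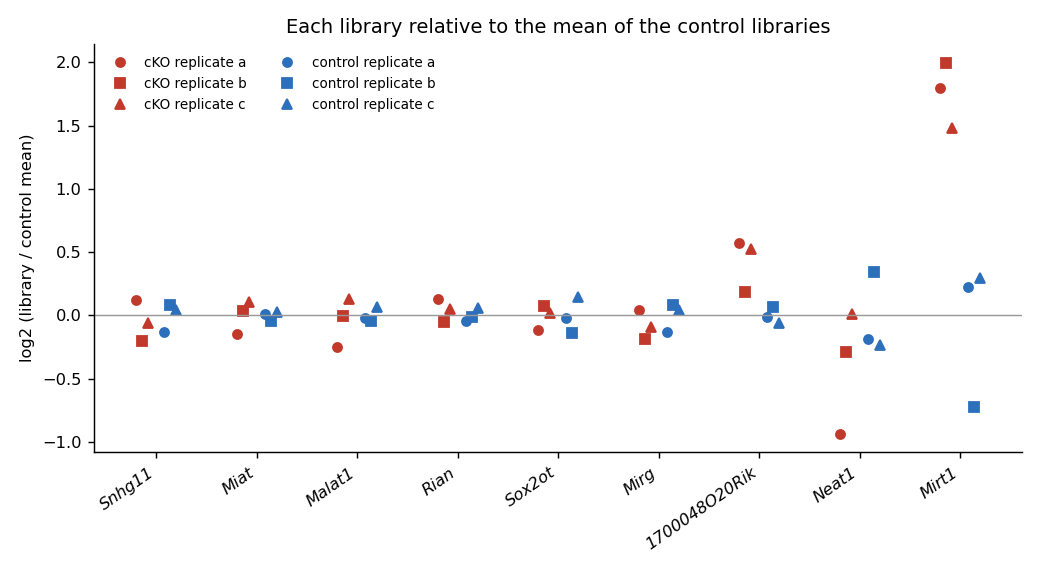
Each point is 1 library, as the log2 of its normalized count over the mean of the control libraries of that gene (cKO red, control blue). Mirt1 and 1700048O20Rik lie above 0 in all 3 cKO libraries, whereas Snhg11, Miat, Malat1, Rian, Sox2ot and Mirg scatter within 0.3 of 0 in both genotypes.

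The transcripts of the imprinted domain lie in the order Dlk1, Meg3, Rtl1, Rian, Mirg and Dio3 along chromosome 12, and Dlk1, Rtl1 and Dio3 code for proteins made from the paternal copy. Meg3 (ENSMUSG00000021268, chr12:109541001-109571726, plus strand) had a mean of 167353 normalized counts in the cKO and of 170088 in the control, a ratio of 0.984. Rian (ENSMUSG00000097451, chr12:109603940-109661716, plus strand) had 30732, 27051 and 29088 in the cKO and 27175, 27868 and 29180 in the control. Mirg (ENSMUSG00000097391, chr12:109729764-109749460, plus strand) had 1140, 975.3 and 1040 in the cKO and 1010, 1173 and 1142 in the control. The groups overlapped for both Rian and Mirg.

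Rian differed by 0.05 ± 0.05 on the log2 scale (SE, 95% confidence interval -0.06 to 0.15, limma, unadjusted p = 0.377, exact permutation p = 0.70). Mirg differed by -0.07 ± 0.09 (interval -0.26 to 0.12, limma, unadjusted p = 0.45, exact permutation p = 0.40). With 3 libraries against 3 the two-sided permutation test cannot go below 0.1. The ratio of Rian to Mirg was 27.6 ± 0.5 in the cKO and 25.4 ± 1.6 in the control (SD, n = 3, exact permutation p = 0.1, the smallest possible). The 3 cKO libraries lay above the 3 control libraries, but the lowest cKO value (26.95) and the highest control value (26.90) nearly met. Of the ratios computed this p was the lowest, with an exact permutation p of 0.5 for Malat1 to Neat1 and 0.4 for Malat1 to Miat. For Sox2ot to Sox2 and Snhg11 to Malat1 it was 0.9 or more.

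Of the 6 genes of the domain that were tested, 0 passed at an unadjusted p under 0.05. Dlk1, a paternally expressed membrane protein that acts on Notch signalling, had 4007, 5518 and 5026 normalized counts in the cKO and 4521, 3653 and 5467 in the control. Dio3, the thyroid hormone deiodinase at the far end, had 118, 183 and 152 against 93.8, 136 and 168. Both overlapped between genotypes. Among the small RNA genes inside Rian, DQ267102 had 42.2, 24.3 and 41.1 normalized counts in the cKO and 23.0, 23.1 and 19.4 in the control. It came up because it ran like 1700048O20Rik, so its higher level in the cKO follows from that choice and is not tested. Its level cannot be told apart from reads of the unspliced host.

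In the list of other imprinted noncoding RNAs, which also holds a host gene of miR-124 that is not known to be imprinted, 0 of the 7 genes tested passed. H19, a growth-restraining transcript of embryonic tissues and mesoderm, had 1808, 1571 and 3759 normalized counts in the cKO and 1524, 1503 and 1657 in the control. It was high in cKO replicate c, the library in which the bone and mesenchyme genes were highest, and its log2 fold change was 0.49 (limma, unadjusted p = 0.0699). The part of those cells was not tested. Peg13, a brain-expressed imprinted RNA, had a log2 fold change of 0.01 and the long antisense RNA Kcnq1ot1 of 0.03. Xist, the RNA that coats the inactive X chromosome, averaged 25521 normalized counts in cKO and 13592 in control libraries. The sex of the pooled embryos and the genotype cannot be told apart there.

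Among the RNAs of nuclear bodies, Malat1 (ENSMUSG00000092341, chr19:5795690-5802672, minus strand) had 39880, 47123 and 51979 normalized counts in the cKO and 46673, 45920 and 49692 in the control. The cKO held both the lowest and the highest library. Malat1 differed by -0.04 ± 0.08 on the log2 scale (SE, 95% interval -0.21 to 0.12, limma, unadjusted p = 0.577, exact permutation p = 0.90).

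Neat1 (ENSMUSG00000092274, chr19:5824708-5845478, minus strand), the neighbour of Malat1 on chromosome 19, was far lower, with 47.8, 75.0 and 92.0 in the cKO and 80.5, 116 and 77.8 in the control. Per kilobase, the mean of Malat1 was 1710 times that of Neat1, with 20771 bases as the length of Neat1. This is also its longest transcript, and its level by a shorter transcript was not computed. cKO replicate a was lowest and control replicate b highest, and the other 4 libraries lay together. Neat1 differed by -0.40 ± 0.28 (interval -1.02 to 0.22, limma, unadjusted p = 0.181, exact permutation p = 0.40), and by -0.12 without cKO replicate a. Neat1 rests on 51 to 121 reads per library, and its within-genotype coefficient of variation was 26.8%, against a median of 20.1% for 1414 genes with a mean within 1.5 times its own.

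Miat (ENSMUSG00000097767, chr5:112213228-112229395, minus strand) had 44711, 50731 and 53216 normalized counts in the cKO and 49944, 48023 and 50521 in the control. As for Malat1, the control libraries lay within the spread of the cKO libraries. Its log2 difference was 0.00 ± 0.06 (SE, interval -0.13 to 0.12, limma, unadjusted p = 0.952, exact permutation p = 1.0). Exons of Miat overlap 2260 bases of Gm26953 on the opposite strand, which had 9.73 to 32.4 normalized counts.

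Of the 12 genes of nuclear bodies and speckles, Malat1 and Neat1 included, 0 passed at an unadjusted p under 0.05. The paraspeckle proteins Sfpq, Nono and Pspc1 had log2 fold changes of -0.01, 0.04 and -0.01, and the speckle protein Srrm2 of 0.05. Of Miat and the 3 splicing factors listed with it, also 0 passed. Sf1, the branch point binding protein, had 6802, 6990 and 7238 normalized counts in the cKO and 6627, 7022 and 7213 in the control. Celf3 and Qk, RNA-binding splicing factors, had log2 fold changes of 0.03 and -0.09.

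Sox2ot (ENSMUSG00000105265, chr3:34104270-34682619, plus strand) had 1185, 1351 and 1296 normalized counts in the cKO and 1262, 1166 and 1417 in the control. The groups overlapped, and the log2 difference was 0.00 ± 0.08 (SE, interval -0.19 to 0.18, limma, unadjusted p = 0.99, exact permutation p = 1.0). Sox2, which keeps neural progenitors undifferentiated, lies within an intron of Sox2ot on the same strand. It had 2428, 2950 and 2342 in the cKO and 2421, 2728 and 2499 in the control. The ratio of Sox2ot to Sox2 in normalized counts was 0.50 ± 0.05 in the cKO and 0.51 ± 0.07 in the control (SD, n = 3, exact permutation p = 0.90).

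Snhg11 (ENSMUSG00000044349, chr2:158375638-158386145, plus strand) had 63017, 50268 and 55388 normalized counts in the cKO and 52756, 61317 and 59481 in the control. It lies on chromosome 2, as Lmx1b does. The groups overlapped, and the log2 difference was -0.04 ± 0.07 (SE, interval -0.20 to 0.12, limma, unadjusted p = 0.593, exact permutation p = 0.80). Of the 15 small nucleolar RNA host genes tested, Snhg11 included, 0 passed at an unadjusted p under 0.05, and their log2 fold changes ran from -0.28 to 0.28. Gas5, a host gene that is turned over when translation is active, had a log2 fold change of 0.06, and Snhg14, the long imprinted host of brain snoRNAs, of 0.00.

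The spread between libraries of the same genotype was compared with that of other genes of a like level. The within-genotype coefficient of variation of Snhg11 was 9.72%, against a median of 3.52% for the 25 genes with a mean within 1.5 times its own. Of these genes, 96.0% varied less than Snhg11. That of Malat1 was 9.66%, against 3.83% for 47 genes, of which 95.7% varied less. Miat varied by 6.52%, more than 78.9% of 38 genes. For Malat1 and Miat the spread lay in the cKO, with 13.1% and 8.83%, against 4.21% and 2.64% in the control. Rian, with 5.22%, was nearer to the 3.83% of its 111 genes.

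Pairs of the 7 RNAs were compared over the 6 libraries. Malat1 and Miat had Pearson's r = 0.965 (exact permutation p = 0.00833) and Spearman's rho = 0.943 (exact permutation p = 0.0167). Mirg and Snhg11 had r = 0.966 (exact permutation p = 0.0111) and rho = 0.829 (exact permutation p = 0.0583). These are the strongest of 21 pairs among the 7 RNAs, and both had an adjusted exact permutation p of 0.117 for r, so 0 of 21 passed the correction. Without the 2 libraries farthest from the median of the first-named RNA of the pair, r was 0.654 for Malat1 and Miat and 0.876 for Mirg and Snhg11. Of the deviations from the means of each genotype, r was 0.978 and 0.984. The lowest r was that of Miat and Snhg11 (r = -0.658, adjusted exact permutation p = 0.460).

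**Figure D4:**
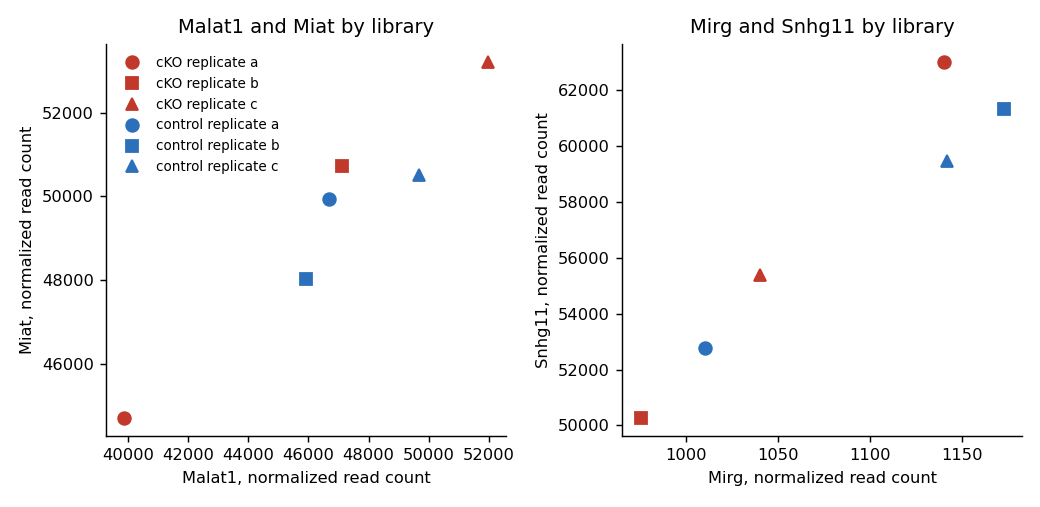
Normalized read counts of Malat1 against Miat and of Mirg against Snhg11, 1 point per library (cKO red, control blue; circle, square and triangle for replicates a, b and c). The axes do not start at 0. In cKO replicate a Malat1 and Miat were lowest and Snhg11 highest.

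cKO replicate a held the lowest level of Malat1, Miat and Neat1 and the highest of Snhg11, Rian and 1700048O20Rik. The same library had the highest summed level of the 10 markers of maturing neurons, 285951 normalized counts against 273127 to 279474 in the others, and 5 of the 10 were highest there (Tubb3, Map2, Dcx, Syt1 and Rbfox3 were not). It also had the lowest summed level of the 8 markers of cycling progenitors, 11024 against 11646 to 14762. Nes, the gene of the progenitor filament nestin, made up 6428 of that sum, and Mki67, Top2a, Ccnb1 and Cdk1, genes of dividing cells, were lowest in control replicate b instead. Its 6 radial glia markers summed to 29348, against 33585 to 37632 in the others. The part of this difference in the levels of the noncoding RNAs was not tested.

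Over all annotated long noncoding RNAs, 1709 of the 5516 in the table had a mean of at least 10 and were tested. Of these, 67 (3.92%) had an unadjusted p under 0.05 by limma, 30 higher and 37 lower in the cKO, and 0 had an adjusted p under 0.05. Their median log2 fold change was 0.00. Most were scarce: the median of the 5516 was 2.82 normalized counts, and 54 reached 1000. Meg3, Miat, Malat1 and Rian were the 4 most abundant of them.

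Among the 3 long noncoding RNAs with the smallest p higher in the cKO, Mirt1 and 1700048O20Rik stood by the values that had picked them, so nothing is read from their place. The other was Gm19817, which had 157, 153 and 150 normalized counts in the cKO and 92.0, 103 and 75.6 in the control. The 3 lower in the cKO were Gm37711, Gm2694 and E130215H24Rik. Gm37711 had 3.75, 5.28 and 2.16 against 19.5, 12.5 and 17.3, from a few reads per library, and E130215H24Rik had 6.56, 6.34 and 5.41 against 17.7, 15.4 and 22.7. Both had means under 10 in the cKO and reached the minimum mean of 10 only through the control, where they were high, so a lower level in the cKO is in part fixed by that filter. All 6 had groups that did not overlap, as the choice by smallest p favours.

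Gm2694 was also the single gene of the 21 tested in the list of neural noncoding RNAs with an unadjusted p under 0.05. GENCODE annotates 2 genes of this list, Tunar and Gm11549, as protein-coding. It is a long intergenic RNA at chr8:87460469-87525554. It had 184, 242 and 224 normalized counts in the cKO and 382, 277 and 278 in the control, with a log2 fold change of -0.54 ± 0.17 (SE, limma, unadjusted p = 0.00871, adjusted p = 1.00). For 21 genes, 1 is near the 2.75% of all genes. The other 20, among them the host genes of miR-9 and miR-124 and the homeobox antisense RNAs Six3os1, Otx2os1 and Dlx6os1, did not pass.

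**Figure D5:**
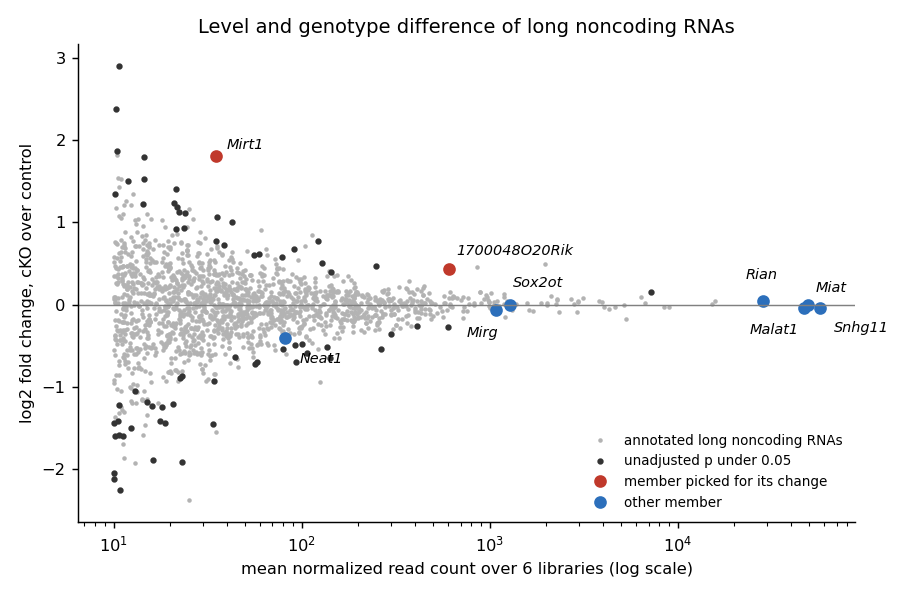
Each grey point is 1 of 1709 annotated long noncoding RNAs, with its mean normalized count on a log axis and its fitted log2 fold change, cKO over control; black points have an unadjusted p under 0.05. The abundant members lie close to 0. Mirt1 and 1700048O20Rik (red) were picked for their higher cKO mean and lie above 0 for that reason.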

How the data were processed

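Midbrain RNA of E14.5 embryos was sequenced with an mRNA library protocol (3 Lmx1b cKO and 3 control libraries, replicates by the labels). The submitters' processing notes name TopHat 1.0.14, Bowtie2 2.1.0, HTSeq 0.6.1p1, DESeq 1.10.1 and the build GRCm38.p4, whereas the methods name DESeq2. The table that the authors deposited gives a mean signal over all libraries and per genotype, in read counts divided by size factors. The lines that name no gene hold 31.8% of the mean counts and were left out. The ratio, log2 ratio and p-value columns of the authors' own comparison were not used. All columns were matched to a group.

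Because each mean is a sum of whole reads times a step per library, the 3 counts behind it were searched, among all whole numbers for group means under 10000 and within 25% of the mean above. A gene counted as recovered where a single set fitted. Of 1000 decoy means under 10000, 0 (cKO) and 1 (control) had an answer. At means of 30000 to 60000, where Malat1, Miat and Snhg11 lie, 2 and 7 of 30 decoys had one, so the values per library of these genes rest on the window. Recovered size factors differed from recomputed ones by at most 0.00375%. The recovered libraries could not be tied to sample numbers.

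Genes averaging 10 or more normalized counts went into limma 3.58.1 (R 4.3.3, voom weights, genotype as the term), with Benjamini-Hochberg adjustment over all 17162 genes, and single members with a two-sided exact permutation test. The script was tested on simulated data. The p-values measure the spread between these pools. Python 3.11.15, pandas 2.3.3, numba 0.67.0, scipy 1.17.1, numpy 2.4.6 and matplotlib 3.10.9 were used. Positions and exon lengths came from GENCODE M21 (GRCm38), promoters and microRNAs from RefSeq (GRCm38.p6).

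The members, the gene lists and the tests were chosen with earlier results of these data known. Named beyond the members were genes of the noncoding RNA and pathway lists with an unadjusted p under 0.05 or among the most abundant of their list, nearest coding and exon-overlapping genes, the 3 genes most like Mirt1 and 1700048O20Rik, and the 3 long noncoding RNAs with the smallest p in each direction. Dio3, H19, Kcnq1ot1, Sfpq, Nono, Pspc1, Sf1, Six3os1, Otx2os1, Dlx6os1, Otx2, Ddx3y, Tunar, Gm11549, the cell type markers, AC154442.1 and DQ267102 as a gene of Rian were named after their values were seen. Rmst, Lncpint, Snhg10 and Dio3os of the lists were not analysed here. Alternatives were other minimum means, limma-trend, library totals, quantile normalization, pseudocounts of 1 and 10, the longest transcript as the length and each library left out in turn.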

Additional observations from a re-analysis of the deposited data

How the results depend on the processing

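The count of adjusted calls was 0 among the 7 members and among all long noncoding RNAs under all 11 alternatives, except that at a minimum mean of 100 Neat1 dropped out and 6 members were tested. Over all genes it was 0 except without control replicate a, where 3 genes passed. The long noncoding RNAs with an unadjusted p under 0.05 numbered 67, 289 without a minimum mean and 18 at a minimum mean of 100, where 5513 and 453 were tested, and 55 to 88 with a library left out. With a library left out, log2 fold changes ran from 1.48 to 1.96 for Mirt1, 0.35 to 0.55 for 1700048O20Rik, 0.00 to 0.09 for Rian, -0.14 to -0.01 for Mirg, -0.60 to -0.12 for Neat1, -0.13 to 0.063 for Malat1, -0.0563 to 0.0705 for Miat, -0.0653 to 0.0678 for Sox2ot and -0.128 to 0.0365 for Snhg11. The direction turned for Malat1 (0.063), Miat (0.0705) and Sox2ot (0.0554) without cKO replicate a, for Miat (0.00322) without control replicate a, for Miat (0.0114) and Sox2ot (0.0678) without control replicate c, and for Snhg11 without cKO replicate b (0.0365) or control replicate b (0.00345). The cause was not tested. A pseudocount of 10 lowered the log2 ratio of means of Mirt1 from 1.78 to 1.31. Per kilobase, the longest transcript as the length gave 10.8 in place of 4.10 for Mirt1, 3525 in place of 1564 for Rian, 283 in place of 148 for Mirg and 367 in place of 110 for Sox2ot. No paired analysis was possible because the recovered libraries carry no replicate numbers. Reads per library were fewest for Mirt1 and Neat1, at 10 to 121, which limits their precision. Values per library of Meg3 were not analysed here.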
